A study of Homo sapiens with 6 samples.

Results

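The 10 genes described here are markers of ovarian and Müllerian lineage: PAX8, WT1, WFDC2, MSLN, FOLR1, SOX17, EMX2, MECOM, ESR1 and PGR. They were chosen by name, and all 10 had a row among the 60649 gene rows of the RNA-seq count table. Cells of OVCAR5, an established line from a human ovarian cancer, received a lentivirus with METTL3, the catalytic subunit of the complex that methylates adenosine in mRNA (m6A), or the empty PCDH vector. Both groups were selected with puromycin and grown in the same medium, no cisplatin was named for these libraries, and poly(A) RNA of 3 METTL3-overexpressing and 3 vector control libraries was sequenced. The control cells are called parental in 1 place of the labels and empty-vector in another. Each group is a selected, stably transduced population of 1 line, and nothing in the labels states that the 3 libraries came from separate cultures, so p-values measure the spread between these libraries, which may be technical. Counts are given as CPM, the usual unit of counts relative to the library's total, here after TMM scaling, a correction for differences in library composition, and always in the order of replicates 1, 2 and 3. A level compared between genes is CPM per kb of exons.

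The female reproductive tract develops from the Müllerian duct, and its epithelium is specified by transcription factors that include PAX8, EMX2 and SOX17. Fallopian tube epithelium and most serous ovarian carcinomas keep PAX8 and WT1, carry the estrogen and progesterone receptors ESR1 and PGR in varying amount, and make the surface or secreted proteins WFDC2, MSLN and FOLR1, which are used as serum markers or drug targets. MECOM encodes a zinc-finger regulator whose locus is often amplified in ovarian cancer.

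RefSeq promoter entries existed for 7 of the 10 members, and MSLN, FOLR1 and SOX17 were not among them. The windows below are those with bases upstream of a member's first annotated exon, 1 for each of 6 members that range from the highest level to nearly the lowest, so that the bases upstream can be read beside the levels that follow. Each run is the sense strand of the gene, 5′ to 3′ on GRCh38.p14, ends before the first annotated exon, and has CpG dinucleotides in capitals. WFDC2 is chr20:45469503-45469752 on the plus strand, MECOM is chr3:169663776-169663962 on the minus strand, PAX8 is chr2:113278922-113279171 on the minus strand, WT1 is chr11:32435565-32435789 on the minus strand, ESR1 is chr6:151656422-151656671 on the plus strand and PGR is chr11:101129814-101130063 on the minus strand.
WFDC2: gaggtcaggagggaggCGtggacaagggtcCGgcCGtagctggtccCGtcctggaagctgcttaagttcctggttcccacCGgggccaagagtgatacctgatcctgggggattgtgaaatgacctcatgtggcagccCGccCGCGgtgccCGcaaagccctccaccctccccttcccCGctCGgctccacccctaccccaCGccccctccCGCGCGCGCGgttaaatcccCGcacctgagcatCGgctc
MECOM: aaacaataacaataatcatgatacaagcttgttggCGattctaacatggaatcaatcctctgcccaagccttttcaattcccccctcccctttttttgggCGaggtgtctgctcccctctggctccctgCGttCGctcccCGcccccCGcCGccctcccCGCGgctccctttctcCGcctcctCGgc
PAX8: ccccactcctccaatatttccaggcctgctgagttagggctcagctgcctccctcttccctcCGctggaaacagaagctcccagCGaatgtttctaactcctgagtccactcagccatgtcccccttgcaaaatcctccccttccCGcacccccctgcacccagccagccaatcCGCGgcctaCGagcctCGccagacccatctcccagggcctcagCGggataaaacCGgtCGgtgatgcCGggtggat
WT1: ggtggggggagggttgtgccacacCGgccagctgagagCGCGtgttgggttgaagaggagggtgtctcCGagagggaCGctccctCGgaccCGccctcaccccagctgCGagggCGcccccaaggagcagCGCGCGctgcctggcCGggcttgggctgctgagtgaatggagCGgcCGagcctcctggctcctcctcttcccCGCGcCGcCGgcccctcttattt
ESR1: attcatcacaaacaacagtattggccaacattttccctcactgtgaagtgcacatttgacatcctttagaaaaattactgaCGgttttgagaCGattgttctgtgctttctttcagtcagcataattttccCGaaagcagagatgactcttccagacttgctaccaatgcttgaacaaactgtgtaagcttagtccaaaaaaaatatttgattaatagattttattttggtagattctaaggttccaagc
PGR: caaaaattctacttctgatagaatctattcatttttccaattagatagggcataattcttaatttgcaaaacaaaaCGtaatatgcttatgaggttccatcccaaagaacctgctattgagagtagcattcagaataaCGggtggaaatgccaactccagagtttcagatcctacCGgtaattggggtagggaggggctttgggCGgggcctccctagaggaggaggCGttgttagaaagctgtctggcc

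The printed runs held 19 CpG in 250 bases for WFDC2, 11 in 187 bases for MECOM, 11 in 250 bases for PAX8, 19 in 225 bases for WT1, 3 in 250 bases for ESR1 and 5 in 250 bases for PGR. The median of 35114 promoter windows of 250 bases was 11. Among the printed runs ESR1 and PGR, both near 0 counts, had the fewest, but WT1, also near 0 counts, had as many as WFDC2, the highest member. Further entries of 4 genes lie past the first annotated start and are not printed. These windows of 250 bases held 2 to 11 CpG for ESR1, 12 for PGR, 3 to 18 for WT1 and 8 to 14 for MECOM. The printed counts therefore describe only the outermost window of each gene. GGGCGG, the letters of a GC box, was counted on either strand. It occurred 2 times in the MECOM run and 1 time in each of the WFDC2, PGR and WT1 runs. The PAX8 and ESR1 runs had none, and 42.6% of all windows had at least 1. GGTCA, the half-site of many nuclear receptors, occurred 2 times in the WFDC2 run and in no other printed run, against 32.7% of all windows with at least 1. TATAAA was in none of the printed runs and in 10.7% of all windows. A match is only a run of letters and was not tested as a binding site.

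In the vector control cells the 10 members fell into 5 that were at or above 1 CPM and 5 that were close to 0. WFDC2, which encodes the secreted protease-inhibitor-like protein HE4, was by far the highest at 98.1 ± 18.1 CPM per kb (SD, n = 3), the 98.3th percentile of 18487 protein-coding genes with a count. MSLN (mesothelin, a surface glycoprotein) followed at 6.55 ± 0.92, FOLR1 (folate receptor alpha) at 4.40 ± 1.90, MECOM at 2.55 ± 1.11 and PAX8 at 0.957 ± 0.140 CPM per kb. The median protein-coding gene stood at 2.21 CPM per kb, so PAX8, the defining transcription factor of the lineage, was below it at the 41.2th percentile. WFDC2 was 14.97 times MSLN, and the lowest WFDC2 library (84.0 CPM per kb) exceeded the highest MSLN library (7.21 CPM per kb). MSLN and FOLR1 overlapped, at 5.50 to 7.21 and 3.14 to 6.58 CPM per kb, and so did FOLR1 and MECOM (1.74 to 3.81), so their order is not settled beyond the spread. The PAX8 range, 0.865 to 1.12 CPM per kb, lay below that of MECOM. After PAX8 came a gap of 27.4 times to EMX2.

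The lowest 5 members were, in order of mean, EMX2 at 0 to 0.0721, WT1 at 0 to 0.0250, ESR1 at 0.00264 to 0.00387, PGR at 0.00241 to 0.00287 and SOX17 at 0 to 0.00449 CPM per kb over the vector control libraries. Each of these ranges overlapped the next. SOX17 had 1 count in 1 vector control library and 0 in the other libraries, where a count of 0 allows up to 3 counts, that is 0.0242 to 0.0297 CPM by library. The label of an ovarian epithelial line therefore went with a partial set of the lineage markers in these cells: WFDC2, MSLN, FOLR1, MECOM and PAX8 were detected in all 6 libraries, and SOX17, EMX2, WT1, ESR1 and PGR were at or near 0. The order of mean levels was the same with the longest transcript as length and without replicate 1. The neighbours that overlapped were fewer without vector control replicate 1, where 1 pair overlapped in place of 6.

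**Figure D1:**
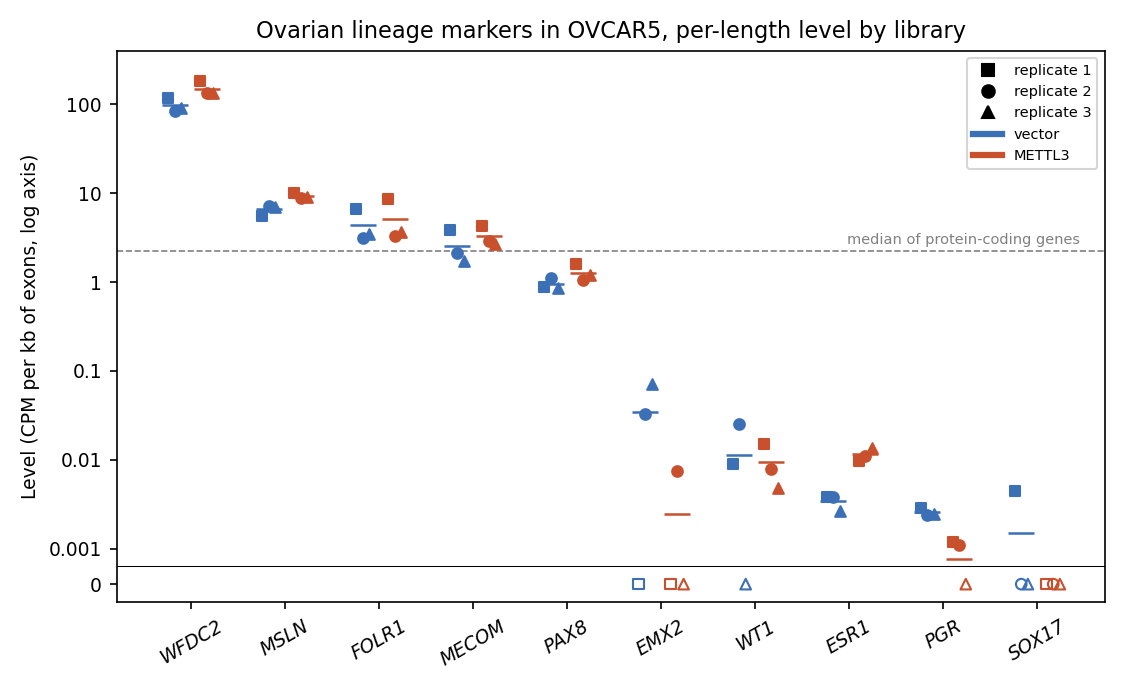
Per-length level of each lineage marker (CPM per kb of exons, log axis, with libraries at 0 drawn as open symbols on the lowest line), by library, for vector control (blue) and METTL3-overexpressing (red) cells. Short lines are group means and the dashed line is the median of protein-coding genes in the vector control libraries, 2.21. WFDC2 stands alone at the top, MSLN, FOLR1, MECOM and PAX8 lie between 0.865 and 10.0, and the other 5 members lie below 0.08.

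Total counts ran from 96633925 to 125463386, and 22038 genes passed edgeR's filter on low counts. Replicate 1 of both groups stood apart from the other libraries, so each member's result is given with all 6 libraries and with replicates 2 and 3 alone, 4 libraries that are part of the 6. That split was chosen with earlier results of these data known, so its p-values do not test a comparison set in advance. Other genes named for replicates 2 and 3 did not pass edgeR's test on 6 libraries. Between 67.6% and 70.5% of counts from 1 to 20 were even numbers. Counting the 2 mates of each pair separately would give such a pattern, and small counts would then be less precise than they look. The cause was not tested. The METTL3 transcript had 152, 165 and 175 CPM after transduction with METTL3, against 80.6, 68.6 and 71.6 CPM with the empty vector. The groups did not overlap (log2 fold change 1.16, standard error 0.117, edgeR adjusted p = 0.072, two-sided p = 0.1 by exact permutation, which 3 against 3 cannot go below). DESeq2 called METTL3 higher on the same libraries (adjusted p = 1.36e-14), and so did edgeR in replicates 2 and 3, by 1.28 (adjusted p = 1.59e-08).

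Whether the lineage markers changed with METTL3 was asked by edgeR's quasi-likelihood test fitted on all genes, where a gene passed at a Benjamini-Hochberg adjusted p-value under 0.05. On all 6 libraries 0 of the 6 members tested passed, as did 0% of the 22038 genes tested. ESR1 passed the filter on low counts through the METTL3-overexpressing group alone, so its direction was set by the filter. It is left out of the edgeR counts that follow. The other 5 had a log2 fold change above 0, with a median of 0.42 against -0.018 over all genes tested. Of these 5, WFDC2 and MSLN had an unadjusted p-value under 0.05, in the direction of higher, as did 4.4% of genes tested, and the same genes had groups that did not overlap, as did 8.47% of genes tested. DESeq2 called 280 genes and 0 members on these libraries. There 4 of the 6 members had an unadjusted p-value under 0.05, as did 2042 of the 22038 genes fitted. The 6 include ESR1, so nothing is read from that count. With replicates 2 and 3 alone, WFDC2, MSLN and MECOM rose, where 6.66% of 22046 genes were called higher, and these 3 calls held with any 1 of the 4 libraries left out. EMX2 was called lower there, as were 8.59% of genes, but it was tested only because of its counts in the vector control group, so nothing is read from its direction. The median over WFDC2, MSLN, FOLR1, MECOM and PAX8 was 0.33 against -0.0033 over all genes.

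**Figure D2:**
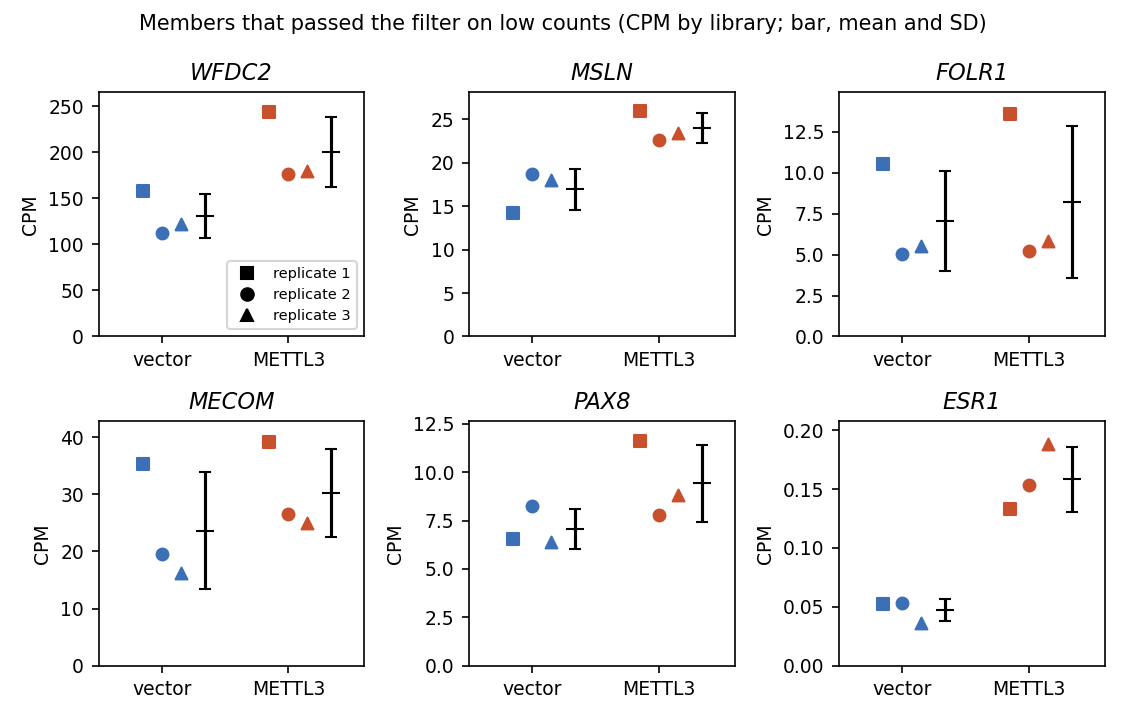
CPM (linear axes from 0) of the 6 members that passed the filter on low counts, 1 panel per gene, for vector control (blue) and METTL3-overexpressing (red) libraries, with the mean and SD beside each group. WFDC2 and MSLN show no overlap between groups, in the direction of higher, as did 8.47% of genes tested. ESR1 shows none either, but it passed the filter through the METTL3-overexpressing group alone. In FOLR1 and MECOM both replicate 1 libraries (squares) lie above the other 4.

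The secreted marker WFDC2 (ENSG00000101443.18, chr20:45469753-45481532, plus strand, GRCh38) had 243, 177 and 180 CPM with METTL3 and 158, 112 and 123 CPM with the vector. Every METTL3-overexpressing library lay above every vector control library. The means were 199.9 ± 37.7 and 131 ± 24.1 CPM (SD, n = 3 each). The log2 fold change of 0.61 (standard error 0.179) did not pass on 6 libraries (edgeR adjusted p = 0.454). Replicates 2 and 3 gave nearly the same size, 0.60, with a standard error of 0.0572, and there WFDC2 rose (edgeR adjusted p = 6.88e-06). Set beside the library of the same replicate number, WFDC2 was higher with METTL3 by 0.62, 0.65 and 0.55 log2 CPM for numbers 1, 2 and 3. Because WFDC2 made up 68.4% to 73.9% of the CPM summed over the 10 members, the members' sum followed it. That sum was 239 to 334 CPM with METTL3 and 164 to 225 CPM with the vector, and without WFDC2 it was 62.4 to 90.5 and 46.4 to 66.8 CPM, ranges that overlap.

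MSLN (ENSG00000102854.16, chr16:760734-768865, plus strand) had 25.98, 22.6 and 23.5 CPM with METTL3 and 14.2, 18.7 and 17.99 CPM with the vector. The groups did not overlap, and vector control replicate 1 was the lowest library. The log2 fold change was 0.50 (standard error 0.142, edgeR adjusted p = 0.450) on 6 libraries and 0.33 (standard error 0.0681, edgeR adjusted p = 0.00414) in replicates 2 and 3, where MSLN rose. By replicate number the differences were 0.87, 0.28 and 0.38 log2 CPM, so the pair of replicate 1 was the widest. The study lists MSLN among genes it selected on these libraries together with METTL3 knockdown libraries, so its direction here is not independent evidence. In the knockdown comparisons, which are not analysed here, the study reports MSLN as lower. MSLN is also made by mesothelium, and of 8 mesothelial and ovarian surface markers 6 were tested and 5 of them were above 0, with CALB2, UPK3B and LRRN4 at an unadjusted p-value under 0.05 beside 4.4% of all genes tested (BNC1 also, but it passed the filter through the METTL3-overexpressing group alone). Their summed level was 385 to 390 CPM with METTL3 and 280 to 380 CPM with the vector, 3 of the 8 (BNC1, ITLN1 and PDPN) were under 0.1 CPM in the vector control cells, and their part in the MSLN result was not tested.

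FOLR1 (ENSG00000110195.14, chr11:72189558-72196323, plus strand), a folate-binding protein of the cell surface, had 13.6, 5.24 and 5.81 CPM with METTL3 and 10.5, 5.03 and 5.55 CPM with the vector. The replicate 1 library of each group lay above the other 4 libraries, and the groups overlapped. Its log2 fold change was 0.22 with a standard error of 0.414 (edgeR adjusted p = 0.885), and 0.06 with a standard error of 0.112 in replicates 2 and 3 (edgeR adjusted p = 0.800). The standard error fell with replicate 1 left out, and no difference was detectable at that precision. The other genes of folate uptake and use gave no pattern in 1 direction: of 13 listed, 11 were tested, 7 above 0 and 4 below, with a median of 0.03, and in replicates 2 and 3 only GGH, which trims polyglutamate from folates, passed. GGH was at 95.8, 107 and 115 CPM with METTL3 and 153, 139 and 148 CPM with the vector, and it fell there by 0.38 on the log2 scale (edgeR adjusted p = 0.000405). SHMT2, an enzyme of the folate cycle and among the highest of that list per length, stood at 172 to 222 CPM over the 6 libraries.

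**Figure D3:**
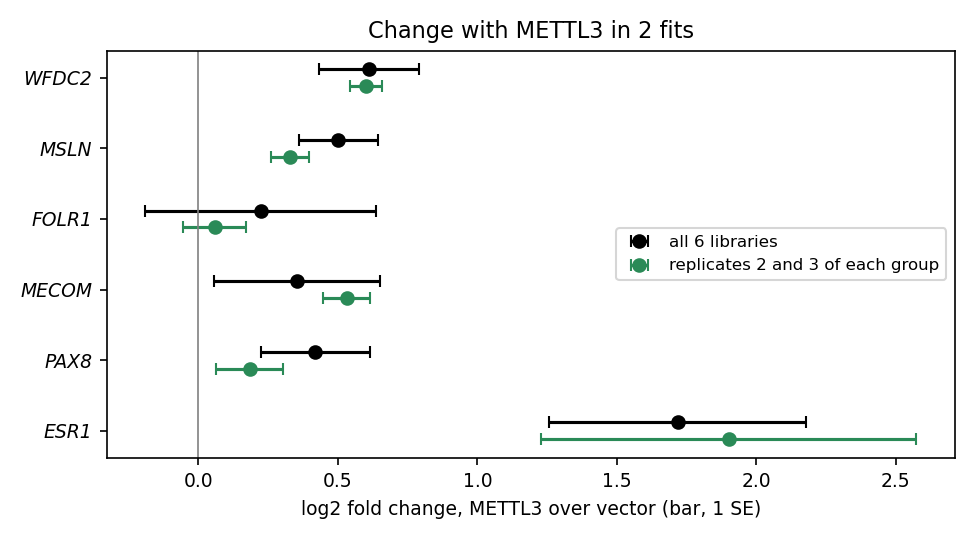
Log2 fold change of METTL3-overexpressing over vector control cells for the 6 members tested on all libraries (black) and in replicates 2 and 3 (green), with bars of 1 standard error. The bars of WFDC2, MSLN, FOLR1, MECOM and PAX8 are shorter without replicate 1, WFDC2 keeps its value of 0.61 and 0.60, and ESR1 has the widest bars of the green set.

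Among the transcription factors, MECOM (ENSG00000085276.19, chr3:169083499-169663775, minus strand) had 39.1, 26.5 and 25.0 CPM with METTL3 and 35.3, 19.5 and 16.2 CPM with the vector. Vector control replicate 1 lay above METTL3-overexpressing replicates 2 and 3, so the groups overlapped, although each METTL3-overexpressing library was above the vector control library of its own number, by 0.15, 0.44 and 0.63 log2 CPM. The log2 fold change was 0.35 (standard error 0.298, edgeR adjusted p = 0.737) on 6 libraries, and leaving out 1 library moved it to 0.77 (vector control replicate 1), 0.23 (vector control replicate 2), 0.14 (vector control replicate 3) or 0.15 (METTL3-overexpressing replicate 1). In replicates 2 and 3 MECOM rose, by 0.53 with a standard error of 0.0845 (edgeR adjusted p = 0.00064).

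PAX8 (ENSG00000125618.18, chr2:113215997-113278921, minus strand) had 11.6, 7.80 and 8.85 CPM with METTL3 and 6.53, 8.24 and 6.38 CPM with the vector. METTL3-overexpressing replicate 1 was the highest library, and the groups overlapped through replicate 2, where PAX8 was 0.08 log2 CPM lower with METTL3. Its log2 fold change was 0.42 (standard error 0.195, edgeR adjusted p = 0.615) on 6 libraries and 0.18 (standard error 0.120, edgeR adjusted p = 0.372) in replicates 2 and 3. The last value rested on single libraries, since it was 0.01 without vector control replicate 3 and 0.39 without vector control replicate 2 (edgeR adjusted p = 0.0198). Of the exonic bases of PAX8, 1651 (22.4%) lie opposite exons of the antisense gene PAX8-AS1, and the strand setting of the counting is not given in the sources used here, so part of the PAX8 count may belong to the other gene. PAX8-AS1 was the more abundant of the pair, at 75.9 to 97.2 CPM with METTL3 and 64.0 to 77.9 CPM with the vector, and PAX8 per length was 25.1% to 37.4% of it. PAX8-AS1 was at a log2 fold change of 0.28 (edgeR adjusted p = 0.624) on 6 libraries and rose by 0.25 in replicates 2 and 3 (edgeR adjusted p = 0.00562).

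The 2 steroid receptors were at a level of few counts. ESR1 (ENSG00000091831.24, chr6:151656691-152129619, plus strand) had 15, 19 and 19 counts with METTL3 and 5, 6 and 4 counts with the vector, that is 0.133, 0.153 and 0.188 against 0.0527, 0.0531 and 0.0362 CPM. Because ESR1 passed the filter through the METTL3-overexpressing group alone, nothing is read from its direction. The groups did not overlap, and the fitted log2 fold change of 1.72 had a standard error of 0.461 (edgeR adjusted p = 0.433). In replicates 2 and 3 it was 1.90 with a standard error of 0.672 (edgeR adjusted p = 0.0755). Its level with METTL3, 0.0115 CPM per kb, remained far below the median gene. PGR (ENSG00000082175.15, chr11:101029624-101129813, minus strand), whose transcription is induced by the estrogen receptor, had 2, 2 and 0 counts with METTL3 and 4, 4 and 4 counts with the vector. The groups did not overlap in the direction of lower, as in 5.75% of the 43096 rows with a count, and the exact permutation test gave p = 0.1 (two-sided, the smallest possible), with every METTL3-overexpressing library under the limit of 3 counts. PGR-AS1, which covers 5.02% of PGR exonic bases on the other strand, had 0 counts in all 6 libraries.

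Genes that respond to estrogen or progesterone did not move together. Of 18 listed, 14 were tested, 5 above 0 and 9 below, with a median of -0.06 on 6 libraries. In replicates 2 and 3, 3 rose and 5 fell. CA12, a carbonic anhydrase, fell by 0.64 (edgeR adjusted p = 6.53e-06), FKBP5, a steroid receptor co-chaperone, fell by 0.36 (edgeR adjusted p = 0.000578), and the EGF-family ligand AREG rose by 0.79 (edgeR adjusted p = 0.000261). The highest of the list per length, IGFBP4 and CCND1, were at 555 to 698 and 378 to 721 CPM. Of 18 other hormone receptors and cofactors all were tested, 10 above 0 and 8 below, and in replicates 2 and 3 none rose while FOXA1, the pioneer factor of the estrogen receptor, fell by 0.43 (edgeR adjusted p = 0.000166) and GPER1, a membrane estrogen receptor, by 0.72 (edgeR adjusted p = 0.00191). FOXA1 was at 42.4 to 46.2 CPM with METTL3 and at 36.5 CPM in vector control replicate 1, against 59.8 and 58.6 CPM in vector control replicates 2 and 3, so the groups overlapped only through replicate 1. PGRMC1 and PGRMC2, heme-binding membrane proteins named for progesterone, were the highest per length in that list, at 104 to 147 and 115 to 133 CPM.

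The remaining 3 transcription factors did not pass the filter on 6 libraries. EMX2 (ENSG00000170370.12, chr10:117542445-117549546, plus strand), a homeobox factor of the urogenital tract, had 0, 3 and 0 counts with METTL3 and 0, 12 and 26 counts with the vector. Both replicate 1 libraries were at 0, so the groups overlapped (exact permutation test, two-sided, p = 0.4). In replicates 2 and 3 EMX2 passed the filter through the vector control group alone, so its direction was set by the filter. Its edgeR adjusted p there was 0.0206, and it was 0.0601 without METTL3-overexpressing replicate 3 and 0.0987 without vector control replicate 3. Its fitted fold change is not given because it depends on the prior count. WT1 (ENSG00000184937.16, chr11:32387775-32435564, minus strand), a zinc-finger marker of serous histology, had 14, 8 and 4 counts with METTL3 and 7, 23 and 0 counts with the vector, and the spread within the vector control group covered the other group (exact permutation test, two-sided, p = 0.9). SOX17 (ENSG00000164736.6), an HMG-box factor, had 0 counts in the METTL3-overexpressing libraries and 1, 0 and 0 with the vector (exact permutation test, two-sided, p = 1), and no difference was detectable at this depth. Antisense genes cover 10.7% of EMX2 and 0.578% of WT1 exonic bases, and EMX2OS itself had 0 to 6 counts per library.

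Replicate 1 differed from replicates 2 and 3 for 3 of the 6 members tested when group and replicate 1 were fitted together, where 4.25% of genes were called higher. This comparison was chosen because replicate 1 had been seen to stand apart in these data, so its p-values are descriptive. FOLR1 was higher in replicate 1 by 1.15 log2 units (standard error 0.123, edgeR adjusted p = 0.00504), MECOM by 0.80 (standard error 0.124, edgeR adjusted p = 0.0127) and WFDC2 by 0.44 (standard error 0.0878, edgeR adjusted p = 0.0267). In FOLR1 and MECOM both replicate 1 libraries lay above the other 4 libraries, whatever their group, and in WFDC2 replicate 1 was the highest library within each group. Leaving out 1 library in turn ended the WFDC2 call in 4 of 6 fits (any fit without replicate 2 or 3 of either group, edgeR adjusted p = 0.0837 to 0.122) and the MECOM call without METTL3-overexpressing replicate 2 (edgeR adjusted p = 0.0536) or vector control replicate 3 (edgeR adjusted p = 0.0616), while FOLR1 passed in all 6. For MSLN the replicate 1 term was -0.09 (edgeR adjusted p = 0.727), since replicate 1 was the highest METTL3-overexpressing library and the lowest vector control library. For PAX8 it was 0.18 (edgeR adjusted p = 0.575), where replicate 1 was the highest METTL3-overexpressing library and the middle vector control library. For FOLR1 the difference between replicate 1 and the others was larger than that between the groups, and for MECOM it was 0.80 against 0.35.

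**Figure D4:**
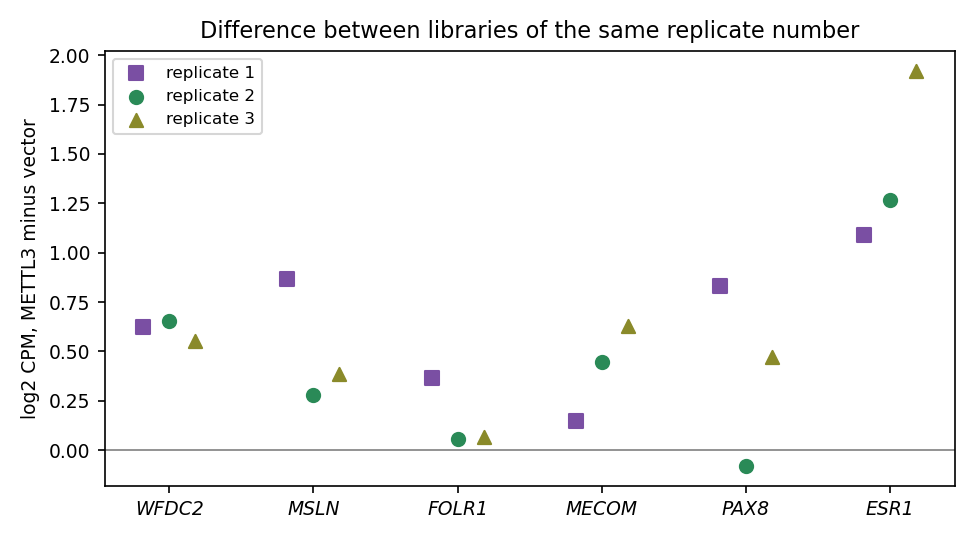
Difference in log2 CPM between METTL3-overexpressing and vector control libraries of the same replicate number, for the 6 members tested on all libraries. WFDC2 differs by 0.55 to 0.65 in every pair, MSLN and PAX8 have their widest difference in replicate 1, MECOM has its smallest there, and PAX8 is below 0 in replicate 2.

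The wider set of Müllerian and ovarian epithelial markers held 24 further genes, of which 18 were at or above 1 CPM in the vector control cells. Of these 24, 21 were tested, 16 above 0 and 5 below, with a median of 0.20 and 4 at an unadjusted p-value under 0.05. In replicates 2 and 3, 4 rose and 2 fell. The keratin KRT7, at 541 to 594 CPM with METTL3 and 416 to 658 CPM with the vector, rose there by 0.49 (edgeR adjusted p = 1.21e-05). Vector control replicate 1 lay above the METTL3-overexpressing range for KRT7, so the groups overlapped on 6 libraries. LHX1, a LIM homeobox factor of the Müllerian duct and kidney, fell by 0.83 (edgeR adjusted p = 5.99e-07), from 50.2 and 51.4 CPM to 27.8 and 29.5 CPM, and both replicate 1 libraries were low for it, at 23.03 and 19.9 CPM. Paralogs of the members gave 9 above 0 and 4 below among 13 tested, with SLPI and PI3, relatives of WFDC2 in the WAP family, highest per length. SLPI rose by 0.24 (edgeR adjusted p = 0.0152) in replicates 2 and 3 but stood at 0.02 on 6 libraries (edgeR adjusted p = 0.992), and like WFDC2 it was higher in replicate 1, by 1.07 (edgeR adjusted p = 0.00508). SOX7 rose by 0.40 (edgeR adjusted p = 0.0184) and EGR1 fell by 0.55 there. EGR1 was at 0.05 on 6 libraries, the opposite direction, with 34.1 CPM in METTL3-overexpressing replicate 1 and 12.8 CPM in vector control replicate 1.

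**Figure D5:**
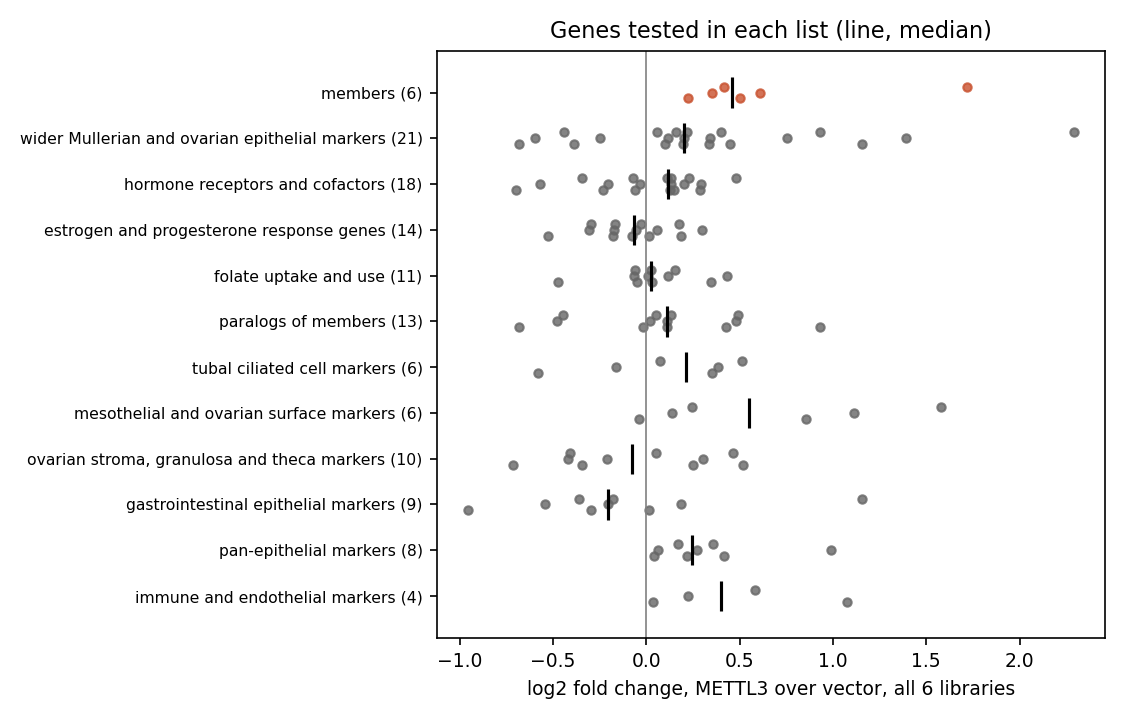
Log2 fold change of METTL3-overexpressing over vector control cells, all 6 libraries, for every tested gene of the lineage markers (red) and of the other gene lists (grey), with the number tested in brackets and the median as a line. The lineage markers lie above 0 with a median of 0.46, or 0.42 without ESR1, the rightmost red point. None of the genes plotted passed edgeR's threshold on 6 libraries, whereas DESeq2 called CDH1, MUC2 and UPK3B there.

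Markers of other tissues moved beside these genes in the following amounts, and their part in the members' results was not tested. All 8 pan-epithelial markers lay above 0 (median 0.24) and all 8 rose in replicates 2 and 3, with CDH1 (E-cadherin) at 346 to 439 CPM with METTL3 and 184 to 201 CPM with the vector, while their summed level was 7442 to 8497 and 6023 to 9362 CPM. ESRP1, a splicing factor of epithelia, rose there by 0.65, and the adhesion protein EPCAM by 0.71. KRT8 and KRT18 were the highest of this list per length. Of the mesothelial list, CALB2 (calretinin) rose by 0.31 and UPK3B by 0.80 in replicates 2 and 3, and NR2F2 was at 175 to 276 CPM over the 6 libraries. The gastrointestinal list of 14 genes had 6 at or above 1 CPM in the vector control cells, with KRT20, an intestinal keratin, at a mean level of 96.2 CPM per kb, beside 98.1 for WFDC2, while CDX1 had 0 counts. Of its 9 genes tested 3 were above 0 and 6 below (median -0.21), 1 rose (MUC2, by 1.05) and 4 fell in replicates 2 and 3, HNF4A by 0.61 and VIL1 by 1.16 (VIL1 was at 0.19 on 6 libraries, the opposite direction, with 5.23 and 1.10 CPM in the replicate 1 libraries with METTL3 and the vector). The summed level of the list was 228 to 254 CPM with METTL3 and 234 to 334 CPM with the vector. Tubal ciliated cell markers were at 13.9 to 19.4 CPM in sum, FOXJ1 rose by 0.54 and TPPP3 fell by 0.98 in replicates 2 and 3, and CAPS was at 3.30 to 7.27 CPM. Ovarian stroma, granulosa and theca markers gave 5 above and 5 below among 10 tested and 0 calls in replicates 2 and 3, with AMH and COL1A1 the highest per length. Of 8 immune and endothelial markers 4 were under 0.1 CPM and 4 were tested, all above 0, with a sum of 15.7 to 33.6 CPM with METTL3 and 13.2 to 19.0 CPM with the vector. PECAM1 rose by 0.69 in replicates 2 and 3, and CD14 was at 7.01 to 11.4 CPM. Like MSLN, FOXJ1 and PECAM1 are among genes the study selected in part on these libraries, so their directions are not independent evidence.

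METTL3 places m6A within a short consensus whose most used form is GGACT. In the canonical transcript of each member the motif was counted on the transcript strand. All 10 members held at least 1, as did 87.8% of 20046 protein-coding transcripts. FOLR1 was the densest, with 4 in 930 bases (4.30 per kb, the 99.6th percentile), followed by EMX2 with 5 (1.93 per kb), WFDC2 with 1 in 567 bases (1.76 per kb), WT1 with 5 (1.65 per kb) and MECOM with 7 (1.28 per kb). MSLN held 2 (0.910 per kb), PGR 11 (0.844 per kb), SOX17 2 (0.853 per kb), ESR1 5 (0.790 per kb) and PAX8 3 (0.740 per kb), each below the median of 0.925 per kb. In replicates 2 and 3 the log2 fold change was 0.06 for FOLR1, 0.60 for WFDC2, 0.53 for MECOM, 0.33 for MSLN and 0.18 for PAX8. Whether motif density and change are related was not tested. Methylation was not measured in these libraries, and a match says only that the letters are present.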

How the data were processed

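RNA-seq counts of OVCAR5 cells were analysed in 3 METTL3-overexpressing and 3 vector control libraries, grouped by their titles. The authors aligned reads to hg38 with hisat2 and counted them per gene with Subread (featureCounts), with fastp also named in the labels, and deposited raw counts without normalization or filtering. Tool versions, annotation release, strand setting and the handling of read pairs and multi-mapping reads are not given in the sources used here. The labels name a stranded TruSeq kit and paired-end reads, and the methods name an NEBNext kit and single-end reads.

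Identifiers without version were matched to GENCODE 44, which named 60463 of 60649 rows. Levels per kb used the union of a gene's exons. Genes kept by filterByExpr (minimum count 10) were TMM-scaled and tested by robust glmQLFit and glmQLFTest in edgeR 4.0.16 (R 4.3.3), and p-values were adjusted over all genes tested by Benjamini-Hochberg. Standard errors are the absolute log2 fold change divided by the root of the F statistic. DESeq2 1.42.0, the authors' tool, was an alternative. Exact permutation tests used log2 CPM with a prior count of 2. Intervals and the limit of 3 counts cover counting error only. On simulated counts with 200 genes changed by a fold of 2, edgeR recovered 69% among 21580 genes on 6 libraries. It recovered 98.5% among 21652 in replicates 2 and 3 and 93% among 21593 for the replicate 1 term. Of the calls, 11.5%, 11.3% and 8.82% were unchanged genes. The changed genes were drawn above 1 CPM, and the simulated libraries were independent, without a shared replicate 1 difference. Smaller changes were not simulated, so these shares need not hold for the members.

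Promoters of 250 bases came from RefSeq (GRCh38.p14) and matched the genome, and bases past an annotated start were removed.

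The members, the gene lists and the split by replicate 1 were chosen with earlier results of these data known. Genes named are the 10 members, METTL3, and from each list the 2 highest per length in the vector control libraries and up to 3 with an adjusted p-value under 0.05. Some genes that this rule names are not reported here. Deviations from the group means correlated between libraries of the same number at 0.33, 0.12 and 0.17, each over 0.1. The replicate numbers were therefore also fitted as pairs, but only as an alternative. Fold changes, standard errors and p-values given per gene come from fits of METTL3 against vector without pairs. This rests on the values and not the labels, and differently numbered libraries reached 0.13 and 0.21. No 2 libraries shared more than 1.45% of identical counts among genes tested.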

Additional observations from a re-analysis of the deposited data

How the results depend on the processing

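The number of members passing an adjusted p-value of 0.05 between METTL3-overexpressing and vector control cells was 0 with DESeq2, its size factors, upper-quartile factors, at least 10 counts in every library, counts divided by 2 and libraries thinned to the smallest total, and 0 to 0 over the fits that left out 1 library. It was 2 (WFDC2 and EMX2) with no filter on low counts, where edgeR called 560 genes, and 4 in replicates 2 and 3. Both of these counts include EMX2, which passed the filter in replicates 2 and 3 through the vector control group alone. Nothing is read from the direction of EMX2. With the replicate number as a block, the paired fit called 0 members on 6 libraries and 4 in replicates 2 and 3, where it called 5450 genes in place of 3362, and it changed no call of a member in either comparison. It was not fitted for the replicate 1 term. Without vector control replicate 1, 350 genes and 0 members passed. In replicates 2 and 3, DESeq2 called 3 members and gave EMX2 no adjusted p, and fits that left out 1 of the 4 libraries, chosen after seeing the data, called 3 to 5. Those fits set 1 library against 2, and the lone library is assumed to vary like the other group. EMX2 was not called without METTL3-overexpressing replicate 3 or vector control replicate 3, and PAX8 was called without vector control replicate 2. For replicate 1 against the others, leaving out 1 library gave 1 to 4 members, with FOLR1 as the member called without METTL3-overexpressing replicate 2 or vector control replicate 3. The overlapping neighbours in the order of levels ranged from 1 to 6 with 1 vector control library left out. The METTL3 transcript differed by 1.11 to 1.23 log2 CPM with 1 library left out.

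Leaving out 1 library reversed some directions that had not passed the test. FOLR1 ranged from -0.32 to 0.64 (lowest without METTL3-overexpressing replicate 1), and in replicates 2 and 3 from -0.0017 to 0.14, with -0.00034 as its other reversed value. The replicate 1 term ranged from -0.20 to 0.49 for PAX8, from -0.35 to 0.19 for ESR1 and from -0.40 to 0.17 for MSLN, and WT1 ranged from -0.70 to 1.10 log2 CPM, with -0.06 without METTL3-overexpressing replicate 1. The causes were not tested. Depth limits SOX17, PGR, WT1, EMX2 and ESR1, whose counts were at most 26 in any library.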

Other observations

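MUC16, the mucin that carries CA125 and binds mesothelin, was looked at after its values were seen. It had 49.4, 6.17 and 3.45 CPM with METTL3 and 7.20, 2.89 and 1.98 CPM with the vector. The group ranges overlapped, and METTL3-overexpressing replicate 1 stood far above the other 5 libraries. Its log2 fold change of 2.29 (standard error 0.951) did not pass edgeR's test (adjusted p = 0.590), and in replicates 2 and 3 it was 0.99 (edgeR adjusted p = 0.113). MUC16 was higher in replicate 1 of both groups by 2.58 (edgeR adjusted p = 0.0130), in the same direction as FOLR1, MECOM and WFDC2.

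PAX2, the paralog of PAX8 in the same lineage, was also chosen after its values were seen. It had 0.328, 1.01 and 0.991 CPM with METTL3 and 0.337, 1.88 and 1.502 CPM with the vector. PAX2 was lower in replicate 1 by 1.96 log2 units (edgeR adjusted p = 0.00788) and fell by 0.76 with METTL3 in replicates 2 and 3 (edgeR adjusted p = 0.0205), whereas PAX8 had values of 0.18 in both comparisons and passed in neither.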
